A study of Mus musculus with 32 samples.

Results

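The genes described here are 37 genes of endoplasmic reticulum (ER) stress and amino acid stress, out of 20145 named mouse genes on the arrays. They were listed by name for their known roles, with no threshold on a measured value, though with earlier results of these data known. They fall into a chaperone arm, an ATF4 arm and 4 further genes. The chaperone arm has 19 genes (ER chaperones, folding enzymes, ER-associated degradation and the translocon, textbook targets of ATF6 and XBP1). The ATF4 arm has 14 genes (ATF4, stress genes linked to it, amino acid synthesis and amino acid transport). The 4 further genes are the stress sensors Ern1 (IRE1), Atf6 and Eif2ak3 (PERK) with the transcription factor Xbp1. Where a gene has several probes, the brightest over all arrays stands for it. All 37 were well above background on all 32 arrays, so none was lost to a filter on low signal.

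The unfolded protein response is set off when unfolded proteins gather in the ER. IRE1 splices Xbp1 mRNA, ATF6 is cut in the Golgi to release a transcription factor, and both drive genes for chaperones and degradation, while PERK phosphorylates the initiation factor eIF2alpha, which slows translation in general and raises that of ATF4. ATF4 is shared with the response to amino acid shortage, in which the kinase GCN2 phosphorylates the same factor, and it drives genes for amino acid synthesis, transport and tRNA charging. Arrays measure mRNA levels only, so they do not show Xbp1 splicing, ATF6 cleavage or ATF4 protein.

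The tumours were grown from 4T1-Luc cells, a luciferase-labelled mouse mammary carcinoma line, injected into a mammary fat pad of Balb/C mice, all female and 8 weeks old. After 1 week mice received sunitinib, an inhibitor of VEGF and PDGF receptor tyrosine kinases, at 40 mg per kg in PBS with DMSO, or that vehicle alone. Tumours resected at 1300 mm3 gave a fraction selected with PECAM-1 antibody beads (the EC fraction) and the remaining digested tissue (the bulk fraction), with 4 mice each for vehicle, sunitinib with a tumour labelled sensitive up to day 8, and sunitinib with a tumour labelled resistant. Bulk samples of smaller tumours, resected at day 9 or at 600 mm3, came from 2 mice for each of vehicle and sunitinib, and all their sunitinib tumours are labelled sensitive. The labels number the mice, so replicates are animals, and all groups share 1 tumour line and 1 host strain.

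Values are log2 of the background-subtracted signal minus that array's 75th percentile, so a level of 0 is that percentile and a difference of 1 is a doubling. Levels of different genes come from different probes and are not compared with each other. Differences were tested with limma over all named genes of a comparison, and a gene is called when its Benjamini-Hochberg adjusted p is below 0.05. Errors after ± are standard errors of that fit.

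Some arrays stand apart, and counts of called members are also given with single arrays or mice left out. The scans lie on 4 slides: EC vehicle with EC sensitive, bulk vehicle with bulk sensitive, all resistant arrays of both fractions, and all smaller tumours. Resistance and tumour size therefore cannot be told apart from slide. The EC resistant arrays had between 46.1% and 52.9% of probes well above background, against 79.9% to 86.4% in the other EC arrays, and among bulk resistant arrays mouse 2 had 83.5% against 55.3% to 58.8% in the other mice. Vehicle mouse 3 stood apart among bulk vehicle arrays, with a mean of 16 endothelial markers at 0.85 against -3.25 to -2.80, and a mean of 11 immediate early and dissociation stress genes (such as Fos, Egr1 and Atf3) at 2.19 against 5.49 to 5.72. The endothelial mean lay between 2.06 and 3.61 in all 12 EC arrays, above every bulk array. Macrophage markers were also higher in the EC fraction, with means of 3.93 to 6.79 in EC arrays and 1.18 to 3.86 in bulk arrays, without overlap, so the EC fraction was not endothelial alone. Tumour epithelial markers were read in EC arrays too, with means of 1.22 to 3.66 against 2.90 to 4.61 in the bulk fraction. In both fractions a change in the share of a cell type and a change in RNA per cell cannot be told apart.

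RefSeq promoters of build GRCm38.p6 were found for 33 of the 37 genes (Hyou1, Manf, Atf6 and Slc7a5 were not matched), and 250 bases before the start site were searched on both strands. The ER stress element (CCAAT and CCACG with 9 bases between them), bound by ATF6 with NF-Y in textbook accounts, lay in 8 of 17 chaperone arm promoters (47.1%), in 0 of 13 ATF4 arm promoters and in 0 of 3 promoters of the sensors and Xbp1, against 35 of 27025 genes (0.13%) in the whole promoter table. The chaperone arm was listed as textbook targets of ATF6 and XBP1, so its share is not separate evidence for the split into arms. The windows of the 8 genes are shown because all 8 changed in the EC fraction of resistant tumours. The motif ends are in capitals (CCAAT and CCACG, or CGTGG and ATTGG where the match is on the opposite strand), read 5′ to 3′ on the strand of the gene:
Hspa5 (chr2:34772020-34772048, plus strand): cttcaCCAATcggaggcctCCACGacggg
Hsp90b1, distal match (chr10:86705633-86705661, minus strand): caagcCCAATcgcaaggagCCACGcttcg
Hsp90b1, proximal match (chr10:86705528-86705556, minus strand): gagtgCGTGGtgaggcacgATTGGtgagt
Pdia6 (chr12:17266486-17266514, plus strand): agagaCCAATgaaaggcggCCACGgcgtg
Dnajc3 (chr14:118937822-118937850, plus strand): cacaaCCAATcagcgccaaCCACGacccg
Canx (chr11:50325795-50325823, minus strand): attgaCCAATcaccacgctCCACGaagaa
Calr (chr8:84847070-84847098, minus strand): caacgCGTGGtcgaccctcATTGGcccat
Creld2 (chr15:88819515-88819543, plus strand): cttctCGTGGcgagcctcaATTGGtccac
Syvn1 (chr19:6046527-6046555, plus strand): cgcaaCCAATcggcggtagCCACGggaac
The Hspa5 window runs from 70 to 42 bases before the start site. The distal Hsp90b1 window begins 217 bases before it, and the Syvn1 window begins 49 bases before it.

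Other elements were rarer. The second ER stress element (ATTGG and CCACG with 1 base between them) was found in Herpud1 alone among the 33 genes, and in 10 genes of the table (0.037%). The core of the unfolded protein response element, TGACGTGG, was in 0 of the 33 and in 163 genes (0.603%). A core of the C/EBP-ATF composite site, TGATGNAA, which ATF4 binds with C/EBP partners in amino acid response genes, was in 3 of 13 ATF4 arm promoters (23.1%) and in Herpud1, against 1056 genes (3.91%). The ATF4 arm was also listed by known roles, so its share is not separate evidence either. A match is a run of letters and does not show binding. These windows are shown with the motif letters in capitals, again on the strand of the gene:
Herpud1, second ER stress element (chr8:94386372-94386392, plus strand): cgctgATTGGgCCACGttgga
Herpud1, C/EBP-ATF core, opposite strand (chr8:94386312-94386329, plus strand): gcgggTTgCATCAgcccg
Asns, C/EBP-ATF core (chr6:7693220-7693237, minus strand): ccacaTGATGaAActtcc
Chac1, C/EBP-ATF core, opposite strand (chr2:119351044-119351061, plus strand): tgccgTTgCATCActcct
Slc7a11, C/EBP-ATF core (chr3:50443667-50443684, minus strand): gtggcTGATGcAAacctg
Slc7a11, C/EBP-ATF core, opposite strand (chr3:50443648-50443665, minus strand): agaatTTgCATCAtcatg

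In the EC fraction of resistant tumours, the chaperone arm rose against vehicle while the ATF4 arm moved unevenly. Of 19 chaperone arm genes, 13 were higher and 0 lower, with a median difference of 0.64. Of 14 ATF4 arm genes, 3 were higher and 1 lower, with a median of 0.24, and 0 of the 4 sensor and Xbp1 genes were called. Of all 17945 genes tested, 46.3% were called (19.2% higher and 27.1% lower), with a median of 0.03, so that a call by itself was common here. Like the members, 12600 genes were well above background on every EC array: 26.5% of these were called higher and 8.95% lower, with a median of 0.26.

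The chaperones with the largest rises were Dnajb9, Pdia3, Hsp90b1 and Hspa5. Dnajb9 (ERdj4), a co-chaperone of the ER and a known XBP1 target, read 1.96, 1.35, 1.99 and 2.29 in vehicle mice 2 to 5, 1.52, 1.82, 2.23 and 1.60 in sensitive mice 2 to 5, and 2.37, 2.76, 3.46 and 3.86 in resistant mice 1 to 4. Every resistant array was above every vehicle and sensitive array, with resistant mouse 1 the lowest of its group. The difference from vehicle was 1.21 ± 0.32 (adjusted p = 0.00807).

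Hspa5 (BiP), the main ER chaperone and the gene of the first window above, read 7.06, 7.40, 7.21 and 6.95 in vehicle mice, 7.09, 7.09, 7.45 and 7.50 in sensitive mice, and 8.10, 8.23, 7.99 and 8.12 in resistant mice. The resistant arrays lay close together and above all others. The difference from vehicle was 0.95 ± 0.15 (adjusted p = 2.45e-04).

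Hsp90b1 (GRP94), an HSP90 of the ER lumen, read 5.44, 5.67, 5.94 and 5.41 in vehicle mice and 6.40, 6.56, 6.66 and 6.98 in resistant mice, a difference of 1.03 ± 0.16 (adjusted p = 2.75e-04). Pdia3, a disulphide isomerase that works with calnexin and calreticulin, read 3.08, 3.50, 3.87 and 3.28 in vehicle mice and 4.23, 4.50, 4.42 and 4.78 in resistant mice, a difference of 1.05 ± 0.18 (adjusted p = 5.52e-04). Neither gene's resistant arrays overlapped the vehicle arrays.

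The other chaperone arm genes called higher were the disulphide isomerases Pdia6 (0.90) and Pdia4 (0.82), the BiP co-chaperone and PERK inhibitor Dnajc3 (0.77), Creld2 (0.65), the translocon subunit Sec61b (0.64), the lectin chaperones Canx (0.61) and Calr (0.58), the secreted factor Manf (0.58) and the ubiquitin ligase of ER-associated degradation Syvn1 (0.53). Arrays did not overlap between resistant and vehicle mice for 10 of the 13, where 40% of all genes tested did not overlap. The 6 that did not pass were Sdf2l1 (0.86 ± 0.41), Dnajb11 (0.50 ± 0.22), Herpud1 (0.47 ± 0.20), Hyou1 (0.18 ± 0.23), Edem1 (0.14 ± 0.22) and Sel1l (0.10 ± 0.18). Herpud1, a ubiquitin-like protein of ER-associated degradation, read 3.71, 3.35, 3.26 and 3.35 in vehicle mice and 3.27, 3.91, 4.21 and 4.15 in resistant mice, with resistant mouse 1 inside the vehicle range.

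The 8 genes with an ER stress element were all called higher against vehicle, with differences from 0.53 to 1.03 and a median of 0.71. Of the 9 chaperone arm genes whose promoter held no match, 4 were called, with a median of 0.64. Dnajb9 and Pdia3 are among those 4, and Hsp90b1 and Hspa5 among the 8, so the largest differences of the arm fell on both sides of the split. The split is a description, since the promoter search was made with the results known.

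**Figure D1:**
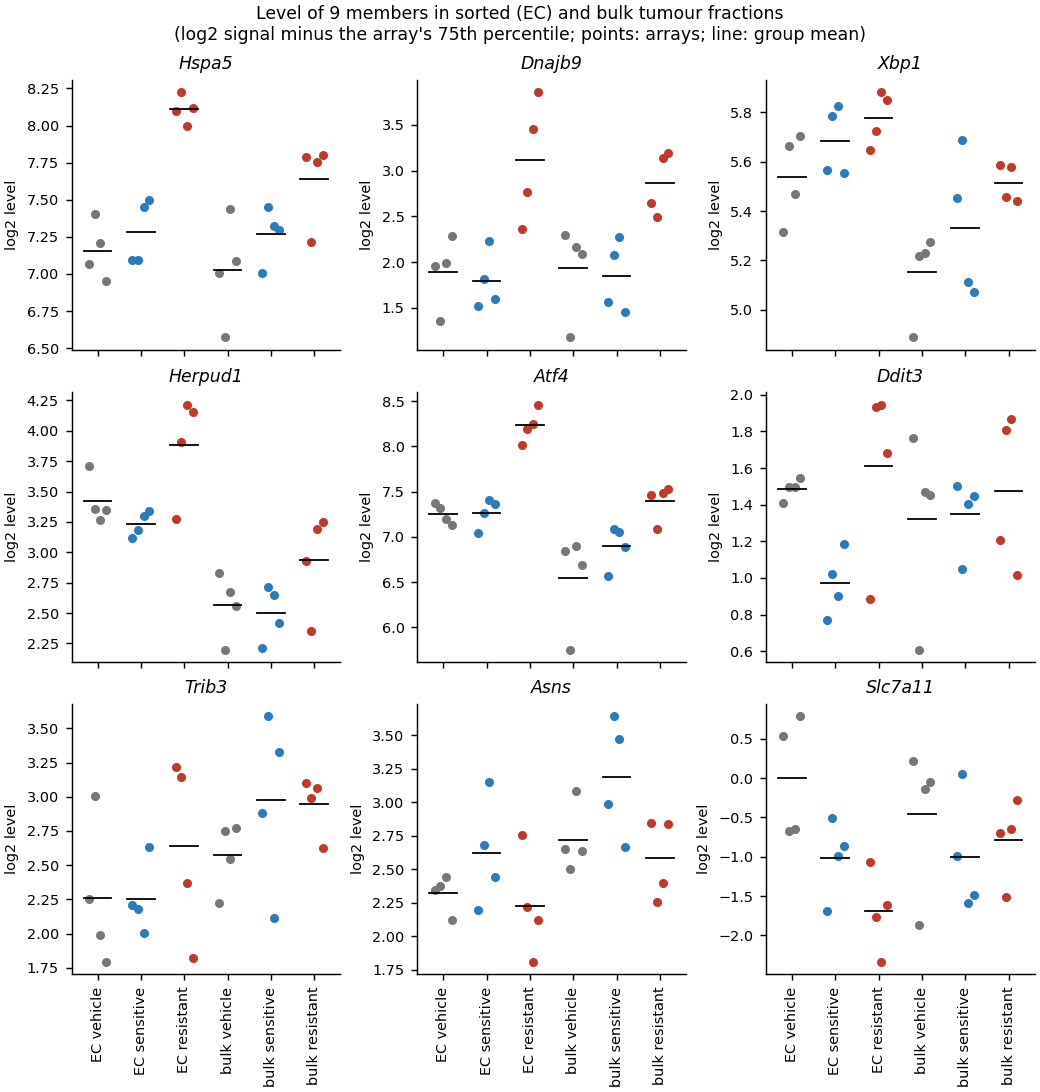
Log2 levels (signal minus the array's 75th percentile) of Hspa5, Dnajb9, Xbp1, Herpud1, Atf4, Ddit3, Trib3, Asns and Slc7a11 in the EC and bulk fractions of vehicle, sensitive and resistant tumours; each point is 1 array (4 per group) and each line a group mean. Hspa5 and Atf4 of the EC resistant arrays sit above all other EC arrays, while Asns does not separate the groups.

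In the ATF4 arm, Atf4 itself and Ppp1r15a rose and Slc7a11 fell. Atf4, the transcription factor of the arm, read 7.38, 7.32, 7.19 and 7.13 in vehicle mice, 7.04, 7.26, 7.40 and 7.37 in sensitive mice, and 8.02, 8.20, 8.25 and 8.46 in resistant mice. All resistant arrays were above all others, by a difference from vehicle of 0.98 ± 0.14 (adjusted p = 1.13e-04). A further Atf4 probe gave 0.90 ± 0.18 (adjusted p = 0.00175).

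Ppp1r15a (GADD34), the phosphatase subunit that reverses eIF2alpha phosphorylation, read 5.49, 5.22, 5.73 and 6.01 in vehicle mice and 6.23, 6.68, 7.24 and 7.32 in resistant mice, a difference of 1.26 ± 0.25 (adjusted p = 0.00164). Psat1, an enzyme of serine synthesis, was higher by 0.78 ± 0.23 (adjusted p = 0.0171), while its further probe read -0.03 ± 0.24 (adjusted p = 0.929), so the probes of this gene disagree.

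Slc7a11, the cystine transporter xCT, read 0.53, -0.67, -0.65 and 0.79 in vehicle mice, -1.69, -0.50, -0.99 and -0.86 in sensitive mice, and -1.06, -1.77, -2.34 and -1.62 in resistant mice. All resistant arrays were below all vehicle arrays, with a difference of -1.70 ± 0.39 (adjusted p = 0.00379), and they overlapped the sensitive arrays (-0.69 ± 0.39, adjusted p = 0.167). Slc7a11 is the ATF4 arm gene with a pair of C/EBP-ATF matches, and it moved against Atf4.

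Other textbook targets of ATF4 did not pass. Asns, the enzyme that makes asparagine, read 2.35, 2.38, 2.44 and 2.12 in vehicle mice and 2.76, 2.22, 1.81 and 2.12 in resistant mice (-0.10 ± 0.23, adjusted p = 0.758). Ddit3 (CHOP), a factor tied to stress-induced cell death, read 1.41, 1.50, 1.49 and 1.55 in vehicle mice and 0.88, 1.93, 1.95 and 1.68 in resistant mice (0.13 ± 0.22, adjusted p = 0.661). Trib3, a pseudokinase that restrains ATF4, read 2.25, 3.01, 1.99 and 1.79 in vehicle mice and 3.21, 3.15, 2.37 and 1.82 in resistant mice (0.37 ± 0.33, adjusted p = 0.380). In each of these 3 genes the groups overlapped and the 4 resistant mice spread widely. The other 7 genes of the arm, Chac1, Shmt2, the mitochondrial folate enzyme Mthfd2, Slc7a5, Slc3a2, Phgdh and Sesn2, lay between -0.48 (Sesn2) and 0.49 (Chac1) and did not pass.

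For the sensors, the differences were 0.07 ± 0.15 for Ern1, -0.04 ± 0.20 for Atf6 and -0.15 ± 0.15 for Eif2ak3. Xbp1, whose unspliced and spliced forms these probes do not separate here, read 5.32, 5.67, 5.47 and 5.71 in vehicle mice and 5.65, 5.72, 5.88 and 5.85 in resistant mice (0.24 ± 0.14, adjusted p = 0.173).

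Genes of the same pathways outside the 37 are given by list. Of 39 further ER folding, quality control and translocation genes, 20 were higher and 0 lower (median 0.45), led by the protease Mbtps2 (0.89), which cuts ATF6, Erp29 (0.89) and Derl2 (0.88). Of 28 further ATF4 and integrated stress response genes tested, of 29 listed, 4 were higher and 0 lower (median 0.24): the amino acid transporter Slc1a4 (1.71), the eIF2alpha kinase Eif2ak2 (1.15), Stc2 (1.09) and the serine synthesis enzyme Psph. Of 18 cytosolic aminoacyl-tRNA synthetases, 4 were higher and 0 lower (median 0.34), with Dars at 0.87, Wars at 0.75 and Sars at 0.42.

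Against the sensitive EC arrays, on another slide, 15 members were higher and 0 lower in resistant arrays, where 46.3% of all genes were called (17.6% higher and 28.7% lower). The chaperone arm gave 11 of these, led by Dnajb9 (1.32 ± 0.32, adjusted p = 0.00511), Pdia3 (0.92), Hsp90b1 (0.87) and Pdia4 (0.85). The ATF4 arm gave Ppp1r15a (1.16), Atf4 (0.96), Ddit3 (0.64 ± 0.22, adjusted p = 0.0291) and the mitochondrial serine hydroxymethyltransferase Shmt2 (0.49). Herpud1 was also called (0.65 ± 0.20, adjusted p = 0.0193). Of the 15 calls, 5 held under every scaling and with each array left out: Dnajb9, Pdia3, Pdia4, Atf4 and Ppp1r15a. The calls of Herpud1, Calr, Ddit3 and Shmt2 were lost with quantile scaling, among others. Of the further ER genes 18 were higher and 3 lower, such as Mbtps2 (0.92) and Fkbp14 (-0.64), of the further ATF4 genes 2 were higher (Eif2ak2 and Cebpb) and 1 lower (Slc43a1), and of the tRNA synthetases 3 were higher (Dars, Kars and Sars). This comparison and the one with vehicle share the resistant arrays.

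**Figure D2:**
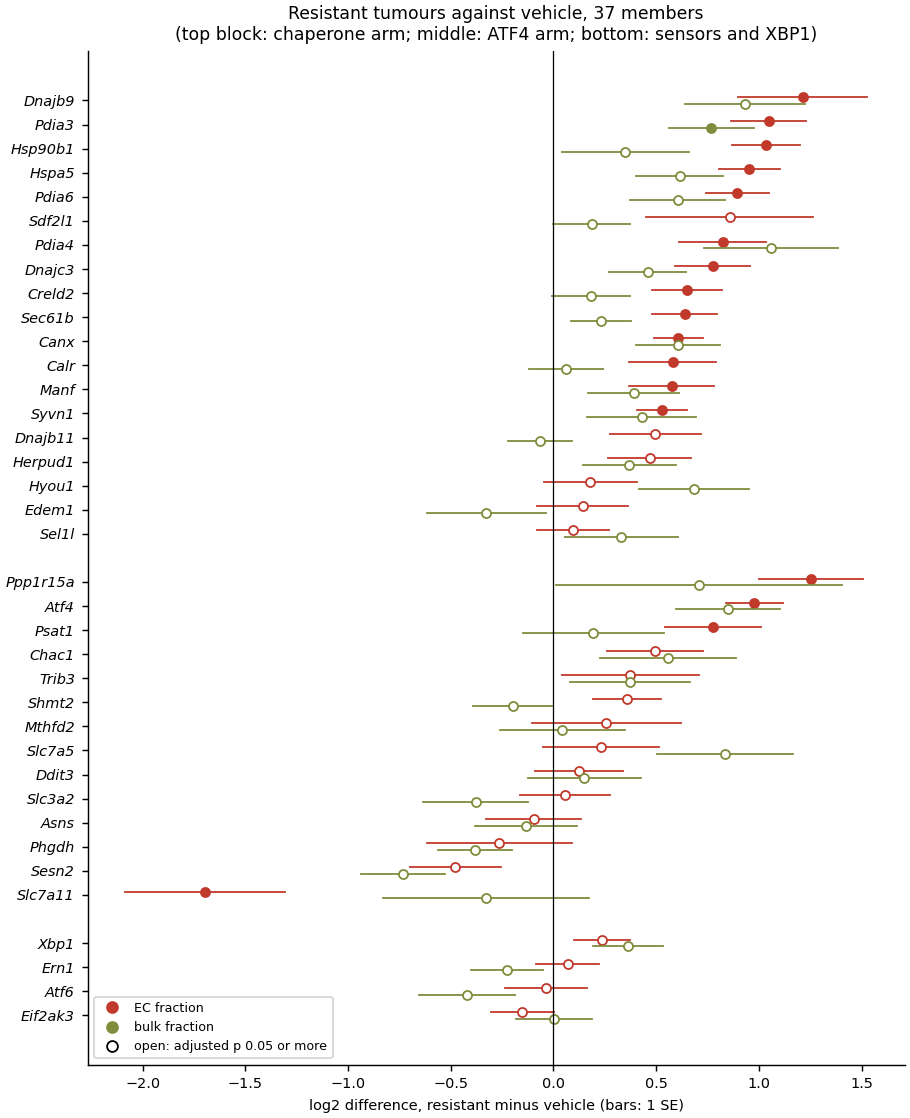
Log2 difference of resistant from vehicle tumours for the 37 genes, in the EC and bulk fractions (4 mice per group); bars are standard errors of the limma fit, filled points have an adjusted p below 0.05. In the EC fraction 13 of 19 chaperone arm genes are filled and right of 0, while Slc7a11 is the filled point left of 0.

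Several measures moved with the resistant EC group, and their part in these differences was not tested. Macrophage markers (9 measured) had means of 4.59, 6.28, 6.79 and 6.60 in resistant mice 1 to 4, against 3.93 to 5.54 in vehicle mice, and 3 of the 9 were called higher. The immediate early and dissociation stress genes had means from 5.70 to 6.10 against 5.10 to 5.55, and 4 of 11 were called higher. Mural cell markers had means from -1.10 to 0.29 against 0.36 to 0.65, and 5 of 8 were called lower. Adipocyte markers had means from -4.16 to -3.63 against -2.04 to -0.56, with 4 of 7 not well above background on any resistant EC array. The endothelial mean was 2.06 to 2.69 in resistant and 2.24 to 2.63 in vehicle arrays. In resistant mice 1 to 4 the median chaperone arm gene was 0.47, 0.64, 0.70 and 0.76 above the vehicle mean.

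The size of these rises depends on how arrays with different shares of detected probes are put on a common scale. Under 6 scalings (the main one, normexp background, quantile, the 75th percentile of probes detected on all arrays, the authors' deposited values, and centring on the median of genes detected on all arrays) the chaperone arm median was 0.64, 0.52, 0.24, 0.35, 0.25 and 0.43. The ATF4 arm median was 0.24, 0.15, 0.10, -0.04, 0.0038 and 0.04, and the median of all genes was 0.03, 0.23, 0.07, -0.26, 0.07 and -0.18. The chaperone arm stayed above the median of all genes and above the ATF4 arm in each of these, and its calls were 13, 11, 7, 8, 8 and 10 of 19. The share of all genes called under each of the other scalings is not given here, so those counts cannot be set against it. The share of all called genes that were higher ran from 41.4% in the main scaling to 72.8% with normexp and 16.1% with the percentile of probes detected everywhere.

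A total of 10 members passed in every scaling and also when each EC array was left out in turn: Dnajb9, Pdia3, Hsp90b1, Hspa5, Pdia6, Pdia4, Dnajc3, Atf4 and Ppp1r15a as higher, and Slc7a11 as lower. The lowest difference over the scalings was 0.78 for Dnajb9, 0.60 for Pdia3, 0.47 for Hspa5, 0.47 for Hsp90b1, 0.47 for Atf4 and 0.81 for Ppp1r15a, and Slc7a11 ran from -1.98 to -1.29. Hyou1, Edem1 and Sel1l in the chaperone arm changed sign between scalings, as did Shmt2, Mthfd2, Slc7a5, Ddit3 and Slc3a2 in the ATF4 arm and Xbp1, Ern1 and Atf6. Sesn2, a stress-induced inhibitor of mTORC1, was called lower in 5 of the 6 scalings but not in the main one (-0.48 ± 0.22, adjusted p = 0.0992).

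**Figure D3:**
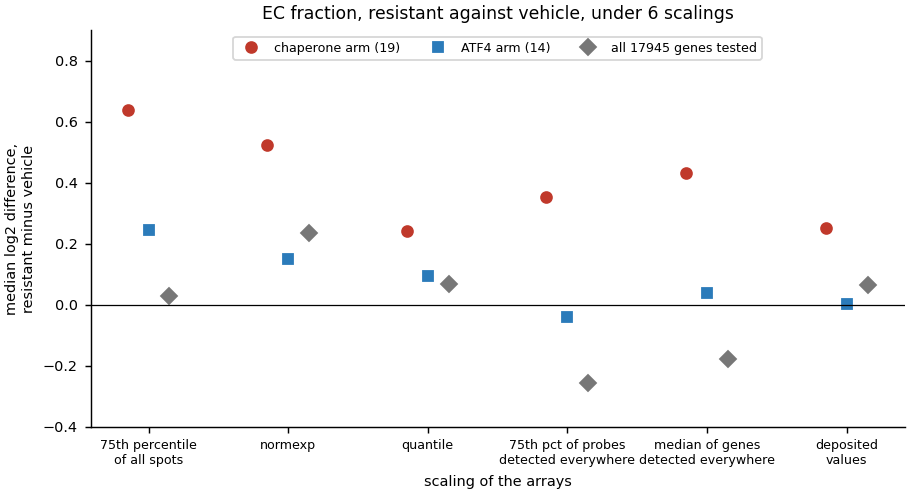
Median log2 difference of resistant from vehicle EC arrays (4 against 4) over the 19 chaperone arm genes, the 14 ATF4 arm genes and all 17945 genes tested, under 6 scalings of the arrays. The chaperone arm lies between 0.24 and 0.64 and above the other medians in every scaling.

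The distance between the arms within an array does not change when a constant is subtracted from that whole array. Steps that act by signal level, such as background removal or quantile scaling, can change it. The mean of the chaperone arm minus the mean of the ATF4 arm was 0.88 to 1.22 in EC vehicle arrays, 0.96 to 1.33 in EC sensitive arrays and 1.25 to 1.75 in EC resistant arrays. Every resistant array exceeded every vehicle array, and the lowest resistant array lay within the sensitive range. In the bulk fraction it was 0.52 to 1.29 for vehicle, 0.56 to 0.86 for sensitive and 1.02 to 1.20 for resistant, where the highest vehicle array was that of mouse 3. Since such distances average genes by probe, they describe these arrays and carry no test.

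Sensitive tumours gave 0 called members in the EC fraction by limma, as for all genes (0% of 17945). The median member difference was 0.01. At an unadjusted p below 0.05, 2 members were lower and 0 higher: Slc7a11 (-1.01 ± 0.39, adjusted p = 0.818) and Ddit3 (-0.51 ± 0.22, adjusted p = 0.869). Ddit3 read 0.77, 1.02, 0.90 and 1.19 in sensitive mice, all below the vehicle range of 1.41 to 1.55, where 4.49% of all genes did not overlap. The next smallest p was that of Pdia6 (0.31 ± 0.15, adjusted p = 0.961). The further ER, ATF4 and tRNA synthetase genes also gave 0 calls.

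In the bulk fraction, sensitive tumours also gave 0 called members by limma (0% of 16972 genes), with 1 member, Pdia4, at an unadjusted p below 0.05 (0.79 ± 0.33, adjusted p = 0.742). Pdia6 (0.46 ± 0.23) and Asns (0.47 ± 0.25) followed.

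In bulk fractions of resistant tumours 1 member of 37 was called against vehicle, Pdia3, where 7.74% of 16972 genes were called (1.98% higher and 5.76% lower). Pdia3 read 3.52, 3.97, 4.35 and 3.65 in vehicle mice 2 to 5 and 4.66, 4.33, 4.82 and 4.77 in resistant mice 1 to 4. All resistant arrays but that of mouse 2 were above the vehicle range, and the difference was 0.77 ± 0.21 (adjusted p = 0.0466). At an unadjusted p below 0.05, 10 members were higher and 1 lower. The member median was 0.33, and the chaperone arm median 0.39, against 0.03 for all genes.

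The uncalled differences in the bulk fraction included Pdia4 (1.06 ± 0.33), Dnajb9 (0.93 ± 0.29), Atf4 (0.85 ± 0.25), Hspa5 (0.61 ± 0.21) and Sesn2 (-0.73 ± 0.20). Hspa5 read 7.01, 6.57, 7.44 and 7.09 in bulk vehicle arrays, and 7.79, 7.22, 7.75 and 7.80 in bulk resistant arrays. Atf4 read 6.85, 5.75, 6.90 and 6.68 in vehicle and 7.47, 7.09, 7.49 and 7.52 in resistant arrays. In both genes resistant mouse 2 was the lowest resistant array and vehicle mouse 3 the lowest vehicle array. Outside the 37, the amino acid transporters Slc7a3 (1.08) and Slc1a4 (1.06) were higher and Spcs2 (-0.52) lower.

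These are the 2 arrays that stand apart, and leaving them out changed the calls. Without resistant mouse 2, 10 members were higher and 1 lower against vehicle: Dnajb9 (1.06), Slc7a5 (0.99), Atf4 (0.95), Pdia3 (0.87), Canx (0.76), Hspa5 (0.76), Pdia6 (0.73), Syvn1 (0.72), Herpud1 (0.56), Dnajc3 (0.55) and Sesn2 (-0.85). Without vehicle mouse 3 the calls were 2, both lower: Sesn2 (-0.87 ± 0.20, adjusted p = 0.0306) and the transporter heavy chain Slc3a2 (-0.66 ± 0.16, adjusted p = 0.0350). The probes of Slc7a5 disagree in the bulk fraction. With all bulk arrays in the limma fit its further probe was called lower against vehicle (-0.996 ± 0.247, adjusted p = 0.0330). It was also lower against sensitive arrays (-1.15 ± 0.25, adjusted p = 0.0132). Across the fits that each left out 1 bulk array the count ran from 0 to 11. The share of all genes called in fits with 1 array left out is not given here, so these counts cannot be set against it. In bulk resistant mouse 2 the median chaperone arm gene lay -0.03 from the vehicle mean, with 9 of 19 above it, while mice 1, 3 and 4 lay at 0.49, 0.58 and 0.68.

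Against the sensitive bulk arrays, resistant arrays were higher for Dnajb9 (1.02 ± 0.29, adjusted p = 0.0462), Hyou1 (0.98 ± 0.27, adjusted p = 0.0375) and Pdia3 (0.85 ± 0.21, adjusted p = 0.0231), and lower for Sesn2 (-0.94 ± 0.20, adjusted p = 0.0134), where 12.1% of all genes were called (3.3% higher and 8.78% lower). Hyou1, an ER chaperone induced by hypoxia, read -2.16, -1.95, -1.97 and -2.001 in sensitive mice and -0.74, -1.001, -1.33 and -1.09 in resistant mice. Sesn2 read 1.26, 1.11, 1.60 and 1.33 in sensitive mice and 0.41, 0.74, 0.22 and 0.15 in resistant mice. The groups did not overlap in either gene, as for 17.7% of all genes. The further probe of Dnajb9 did not pass (0.49 ± 0.33, adjusted p = 0.366). That of Sec61b was called lower (-0.72 ± 0.15, adjusted p = 0.011), while its brightest probe was not called. Without resistant mouse 2, 9 members were called, and without sensitive mouse 4 the count was 1. Among pathway genes, Mbtps2 (1.06), Slc1a4 (1.02) and the tRNA synthetase Eprs (1.12) were the largest rises, and the signal peptidase subunit Spcs2 (-1.08), Hars (-0.83) and Eif4ebp1 (-0.58) the largest falls of their lists, which gave 3 higher and 4 lower of the ER genes, 3 and 1 of the ATF4 genes, and 1 and 1 of the tRNA synthetases.

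The test of whether the resistant effect differed between fractions called 0 members by limma, and 50 of 18285 genes (0.273%; 0.0109% higher and 0.263% lower). At an unadjusted p below 0.05 there were 3 members: Slc7a11 (-1.37 ± 0.48, adjusted p = 0.198), Shmt2 (0.56 ± 0.20, adjusted p = 0.199) and Hsp90b1 (0.69 ± 0.29, adjusted p = 0.261), given as EC minus bulk. So the larger number of calls in the EC fraction was not shown to be a larger response. For the sensitive effect 0 members and 0% of genes were called, with 1 member at an unadjusted p below 0.05, Sel1l (0.53 ± 0.21, adjusted p = 0.9997).

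In the sorted against the bulk fraction of the same tumours, 6 chaperone arm genes were higher and 2 lower, and 2 ATF4 arm genes were higher and 7 lower; a difference between the arms was not tested. Over all 12 mice, with mouse as a block, 11 members were higher and 10 lower in the EC fraction, where 51.8% of genes were called (22.5% higher, 29.3% lower), so the share of members called was near that of all genes. All 16 endothelial markers and all 9 macrophage markers were called higher in the EC fraction (medians 4.87 and 2.62), as were 7 of 8 mural cell markers (median 0.99), while all 10 tumour epithelial markers were called lower (median -1.40), as were 6 of 8 T and NK cell markers. The part of these cell types in the members' differences was not tested. EC and bulk arrays of vehicle and sensitive mice lie on different slides, so that fraction and slide cannot be told apart there, while the resistant mice have both fractions on 1 slide.

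Of the 5 genes of serine, one-carbon and asparagine synthesis, 4 were lower in the EC fraction and Mthfd2 did not pass (0.18 ± 0.11, adjusted p = 0.175). Phgdh, the first enzyme of serine synthesis, ranged from 2.06 to 3.79 with a median of 2.86 in EC arrays, and from 4.07 to 5.10 with a median of 4.62 in bulk arrays. No EC array reached the lowest bulk array, as for 4.4% of all genes, and the difference was -1.75 ± 0.16 (adjusted p = 1.03e-05). A further Phgdh probe gave -1.77 ± 0.16. Shmt2 was lower by a difference of -0.88 ± 0.08 (adjusted p = 1.14e-05), and the difference was -0.44 ± 0.10 for Asns and -0.34 ± 0.11 for Psat1. Chac1, which degrades glutathione (-0.64 ± 0.13), the leucine transporter Slc7a5 (-0.57 ± 0.18) and Trib3 (-0.45 ± 0.15) were lower too. The further probe of Slc7a5 did not pass (-0.20 ± 0.13, adjusted p = 0.208), while that of Psat1 was called lower (-0.90 ± 0.11).

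Among the sensors and Xbp1, the EC fraction was higher for 3 genes and lower for 1. Among Atf4 and the 5 stress genes linked to it, the EC fraction was higher for 2 and lower for 2. Ppp1r15a differed by 1.02 ± 0.26, Atf4 by 0.64 ± 0.11 (adjusted p = 6.63e-04; its further probe 0.20 ± 0.18, adjusted p = 0.368), Eif2ak3 by 0.59 ± 0.09, Ern1 by 0.51 ± 0.11 and Xbp1 by 0.33 ± 0.08, while Atf6 was lower (-0.41 ± 0.08). In the chaperone arm Herpud1 (0.85 ± 0.11, adjusted p = 7.06e-05), Pdia4 (0.61 ± 0.17) and Sdf2l1 (0.56 ± 0.18) led 6 higher genes, while Calr (-0.43 ± 0.10) and Pdia3 (-0.28 ± 0.08) were lower. Herpud1 read 3.12 to 4.21 (median 3.34) in EC arrays and 2.20 to 3.25 (median 2.66) in bulk arrays, where the lowest EC arrays overlapped the highest bulk arrays.

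Within each treatment the fraction difference was called for 10 members in vehicle mice (4 higher, 6 lower), 8 in sensitive mice (3 higher, 5 lower) and 11 in resistant mice (8 higher, 3 lower). The share of all genes called was 26.8% in vehicle mice (11.8% higher, 15% lower), 35.5% in sensitive mice (14.4% higher, 21% lower) and 28.9% in resistant mice (13.4% higher, 15.5% lower). Herpud1 and Eif2ak3 were higher and Phgdh and Shmt2 lower in all 3 treatments. Phgdh differed by -1.61 in vehicle, -2.16 in sensitive and -1.49 in resistant mice. In the resistant mice, Ppp1r15a differed by 1.65 ± 0.44 (adjusted p = 0.0180) and Atf4 by 0.84 ± 0.19 (adjusted p = 0.00933). The count in resistant mice fell to 3 without resistant mouse 4 and to 4 when the slide of the resistant arrays was fitted alone. In vehicle mice it fell to 6 without mouse 2, and in sensitive mice to 4 without mouse 2. The Atf4 difference in vehicle mice fell to 0.42 (adjusted p = 0.0647) without mouse 3, whose bulk array stands apart.

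Genes outside the 37 also differed between the fractions. Of 18 cytosolic aminoacyl-tRNA synthetases, 13 were lower in the EC fraction, led by Vars (-1.37), Kars (-1.12) and Qars (-0.68), and 1 was higher, Wars (0.78), which interferon induces. Among 28 further ATF4 and integrated stress response genes 8 were higher, led by the secreted stress factor Gdf15 (4.06), Slc1a4 (2.06) and Slc43a1 (1.23), and 11 lower, led by the cysteine synthesis enzyme Cth (-1.53), the proline synthesis enzyme Aldh18a1 (-1.37) and Shmt1 (-1.13). Of the 39 further ER genes, 6 were higher, such as Ube2j1 (0.53) and Edem3 (0.51), and 10 lower, such as Txndc5 (-1.07), Derl3 (-0.83) and Wfs1 (-0.70).

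**Figure D4:**
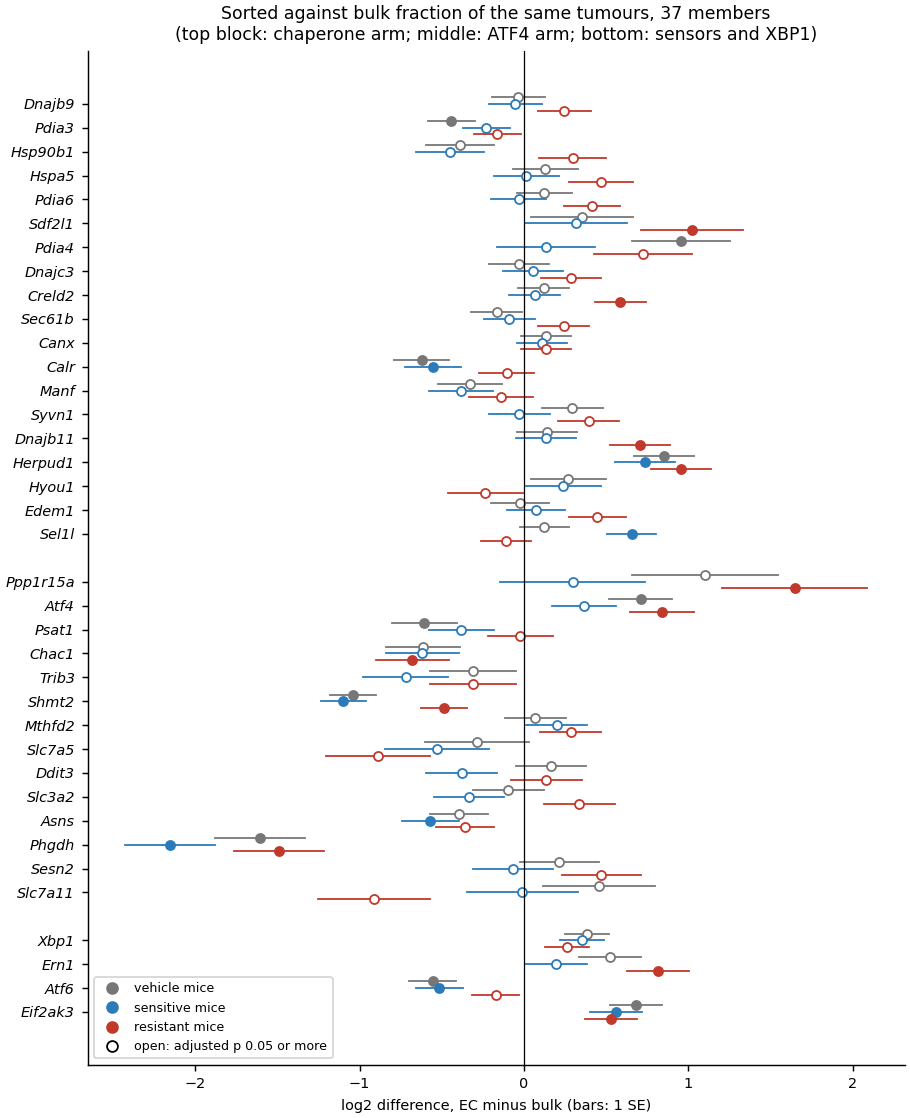
Log2 difference of the EC from the bulk fraction of the same tumours for the 37 genes, in vehicle, sensitive and resistant mice (4 mice each, mouse as a block); bars are standard errors of the limma fit and filled points have an adjusted p below 0.05. Phgdh and Shmt2 are filled and left of 0 in all 3 treatments, and Herpud1 and Eif2ak3 filled and right of 0.

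In the smaller tumours, with 2 mice per group, sunitinib gave 0 called members by limma (0% of 17443 genes), and 0 at an unadjusted p below 0.05. The smallest p values were those of Phgdh (0.40 ± 0.19, adjusted p = 0.562), Pdia3 (-0.27 ± 0.15) and Ern1 (0.38 ± 0.21). The sunitinib effect did not pass as different between 600 mm3 and day 9 for any member (0.166% of genes called, 0.132% higher and 0.0344% lower), with 5 members at an unadjusted p below 0.05.

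The widest of these was Chac1 (2.41 ± 0.45, adjusted p = 0.116). Chac1 read 1.05 and 1.54 in day 9 vehicle tumours, 0.19 and 0.26 in day 9 sunitinib tumours, -0.11 and -0.16 in 600 mm3 vehicle tumours, and 1.62 and 0.79 in 600 mm3 sunitinib tumours. Sunitinib arrays were thus below vehicle arrays at day 9 and above them at 600 mm3, with 2 arrays on each side. Manf (-0.95 ± 0.30) and Sesn2 (0.97 ± 0.32) had the next smallest p values.

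Between 600 mm3 and day 9, over both treatments, 0 members passed by limma (4.31% of genes called, 1.58% higher and 2.73% lower), with 2 higher and 2 lower at an unadjusted p below 0.05. Slc7a11 read -3.32, -3.74, -3.01 and -2.93 in day 9 tumours and -2.06, -0.08, -1.65 and -2.07 in 600 mm3 tumours, without overlap, as for 12.6% of genes (1.79 ± 0.41, adjusted p = 0.0614). Its partner subunit Slc3a2 followed (0.53 ± 0.18, adjusted p = 0.135), then Hsp90b1 (-0.49 ± 0.19). Of the pathway genes, Fgf21 (-2.63) and Vldlr (-1.13), both textbook ATF4 targets, were lower at 600 mm3.

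Against the smaller tumours, bulk fractions of 1300 mm3 tumours were higher in a few ATF4 arm genes and Dnajb9 at their brightest probes. In vehicle mice 5 members were higher and 0 lower, where 8.95% of 18571 genes were called (4.3% higher, 4.66% lower). In sunitinib mice with sensitive tumours 6 were higher and 2 lower, where 16.7% were called (8.85% higher, 7.83% lower). Tumour size, day and slide cannot be told apart here. The labels give 1 protocol text, with enzymatic digestion, for all samples, and do not settle whether the smaller tumours, which were not split into fractions, were digested like the 1300 mm3 tumours.

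Ppp1r15a differed most. It read 2.19 and 1.03 in day 9 vehicle tumours, 0.50 and 0.99 in 600 mm3 vehicle tumours, and 5.64, 1.92, 5.14 and 5.33 in 1300 mm3 vehicle mice 2 to 5. Mouse 3 alone lay in the range of the smaller tumours, and the difference was 3.33 ± 0.64 (adjusted p = 0.00985). In sunitinib mice it read 0.47 to 1.62 in the 4 smaller tumours and 4.83 to 5.84 in the 4 sensitive 1300 mm3 tumours (4.28 ± 0.64, adjusted p = 0.00122).

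Slc3a2 was higher by 1.31 ± 0.23 in vehicle mice and 1.60 ± 0.23 in sunitinib mice, Sesn2 by 1.01 ± 0.19 and 1.26 ± 0.19, and Dnajb9 by 0.93 ± 0.27 and 0.84 ± 0.27. Slc7a11 was higher by 1.85 ± 0.51 in vehicle mice (adjusted p = 0.0369) and differed by 1.41 ± 0.51 in sunitinib mice (adjusted p = 0.0673). In sunitinib mice Atf4 (0.94 ± 0.25) and Calr (0.69 ± 0.21) were also higher, and Sel1l (-0.84 ± 0.24) and Canx (-0.71 ± 0.20) lower. Asns (-0.09 ± 0.27 and 0.05 ± 0.27), Trib3 (-0.37 ± 0.32 and -0.02 ± 0.32) and Xbp1 (-0.10 ± 0.17 and -0.06 ± 0.17) did not pass in either. Further probes passed as higher in vehicle and sunitinib mice for Atf4 (1.68 and 1.65), Dnajb9 (1.74 and 1.69), Slc7a5 (1.50 and 1.43) and Psat1 (1.19 and 0.90). That of Sec61b passed in sunitinib mice only (0.76), and those of Dnajb11, Pdia6 and Phgdh in neither. The brightest probes of Slc7a5 (0.23 and 0.29), Psat1 (-0.07 and -0.32) and Sec61b (-0.28 and -0.09) did not pass, so the result depends on the probe.

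Without vehicle mouse 3, 8 members passed in vehicle mice: Ppp1r15a (4.19), Slc7a11 (2.32), Slc3a2 (1.59), Ddit3 (1.23), Dnajb9 (1.18), Sesn2 (1.14), Atf4 (0.99) and Hyou1 (0.74). Without vehicle mouse 2 the count was 3. Without the bulk resistant array of mouse 2, which enters the fit through the shared spread, it was 10. In sunitinib mice the count was 3 without sensitive mouse 4 and 10 without that resistant array. The share of all genes called in these fits is not given here, so the counts cannot be set against it.

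Immediate early and dissociation stress genes moved with this comparison. Their mean was 0.98 to 2.58 in the smaller tumours and 4.62 to 5.72 in the 1300 mm3 bulk arrays except vehicle mouse 3 at 2.19. Of 11 measured, 10 were called higher in vehicle mice (median 3.31) and 11 in sunitinib mice (median 3.69). Atf3, a stress factor in this list and among the further ATF4 genes, was higher by 3.94 ± 0.92 and 5.21 ± 0.92. Of the 28 further ATF4 genes, 4 were higher and 0 lower in vehicle mice, and 5 higher and 2 lower in sunitinib mice. Of the 39 further ER genes, 0 were higher and 1 lower (Creb3, -0.56) in vehicle mice, and 3 higher and 6 lower in sunitinib mice, led by Derl3 (2.24) and Erlec1 (-1.90). The tRNA synthetases Eprs, Wars and Lars were lower in both. The part of tissue handling in the Ppp1r15a and Atf4 differences was not tested. Endothelial means were -1.46 to 0.64 in the smaller tumours, against -3.59 to -1.94 in bulk sensitive arrays and -3.25 to -2.80 in bulk vehicle arrays other than mouse 3 (0.85). Of 16 endothelial markers 7 were called lower at 1300 mm3 in vehicle mice (median -2.72) and 6 in sunitinib mice (median -2.16), and their part in the members' differences was not tested.

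**Figure D5:**
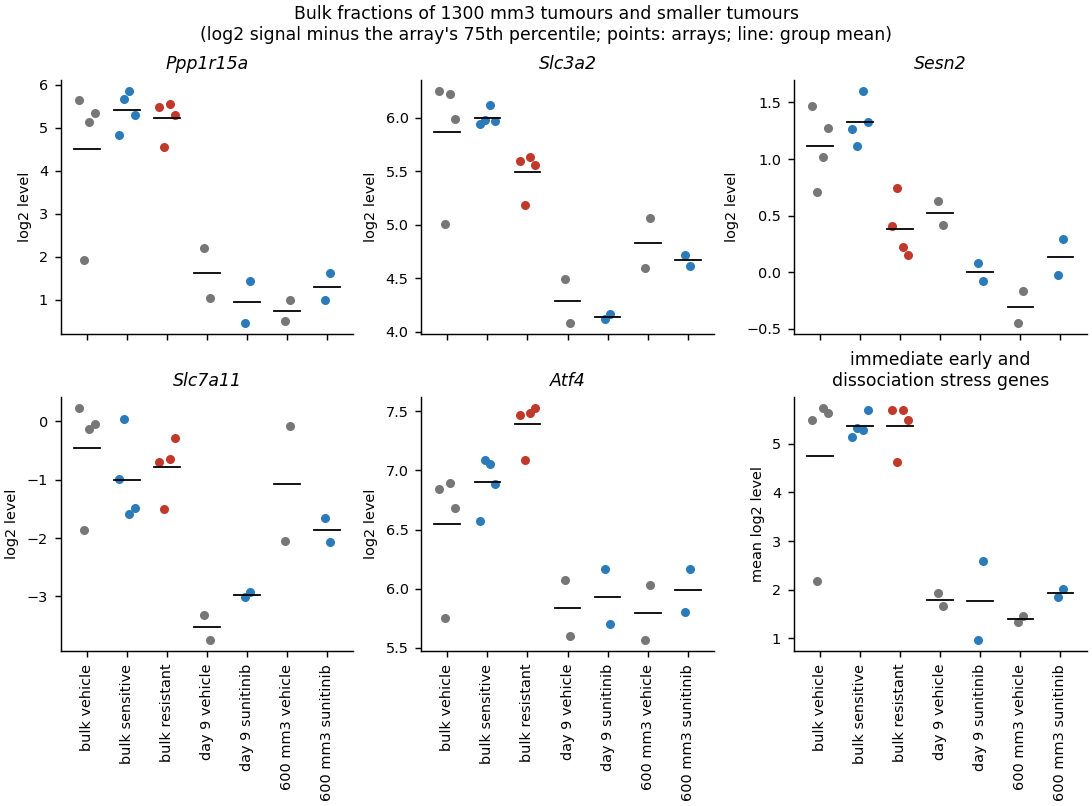
Log2 levels (signal minus the array's 75th percentile) of Ppp1r15a, Slc3a2, Sesn2, Slc7a11 and Atf4, and the mean of 11 immediate early and dissociation stress genes, in bulk fractions of 1300 mm3 tumours (4 per group) and in smaller tumours (2 per group); points are arrays and lines group means. Ppp1r15a lies between 4.56 and 5.84 at 1300 mm3 except vehicle mouse 3 at 1.92, and between 0.47 and 2.19 in the smaller tumours.

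Chaperone arm genes varied together from mouse to mouse within groups. After group means were removed, the mean correlation over 171 pairs of chaperone arm genes was 0.40 across the 12 EC arrays and 0.39 across the 12 bulk arrays, where the mean over pairs of all tested genes was 0.01 in each. Pairs within the ATF4 arm had a mean of 0.07 (91 pairs) in EC arrays and 0.29 in bulk arrays, and pairs across the arms 0.18 and 0.25. These pairs share arrays, scaling and in part depth of signal, so the values are descriptions. Unlike the members, the tested genes include some not well above background on every array. The bulk arrays that stand apart were kept in these correlations.

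For 7 members a further probe was tested in the EC fraction, and 5 of these members were called against vehicle. The further probe was called the same way for 3 of the 5 (Atf4, Dnajb9 and Pdia6) and in no case the opposite way. Those of Psat1 and Sec61b (-0.22 ± 0.16, adjusted p = 0.279) did not pass, and the further probe of Slc7a5 was lower (-1.01 ± 0.25, adjusted p = 0.00575) while its brightest probe read 0.23 ± 0.28.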

How the data were processed

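RNA from 32 tumour samples was hybridised to Agilent mouse arrays with 1 dye (Cy3). The scanner files hold intensity values that the authors' scans gave with Agilent Feature Extraction 10.7.3.1 per the file headers (9.1 per the submitters' processing notes), with the background removed array by array and no scaling across arrays. The deposited table of all samples holds normalised intensity values on a linear scale, with medians from 120 to 126, whose method is not given in the sources used here. Of 55681 probes, 26582 matched RefSeq accessions of GRCm38.p6, for 20145 genes.

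Values are log2 signal minus the 75th percentile over 59305 spots that are not controls. Genes well above background on as many arrays as the smallest group entered limma 3.58.1 (R 4.3.3), with separate fits for EC, bulk, smaller tumours, EC with bulk (mouse as a block) and all bulk samples. The scripts were tested on simulated data. No normexp fit on the mean signal was made, since the files used here hold the median signal, which took its place (offset 50). The number of arrays limits precision.

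The members and the lists were chosen with earlier results of these data known. Always named were Hspa5, Dnajb9, Xbp1, Herpud1, Atf4, Ddit3, Trib3, Asns and Slc7a11, then in each comparison the 4 largest rises and the 4 largest falls among called members, or the 3 smallest p values where fewer than 5 passed, and up to 3 genes a direction for each pathway list. Further members are named with their values where a list is given in full, and those were added after their values were seen. Mouse numbers pair EC with bulk samples, since they name the same animal; deviations correlated at 0.155 to 0.442 over 11 of the 12 mice and at -0.073 for resistant mouse 4. Both files of resistant mouse 4 carry another mouse number in their names than in their titles, the same number in both fractions; the titles were used. Across treatments numbers are only names, and those correlations ran from -0.314 to 0.286. Alternatives were other scalings, filters, probe rules, blocks and each array left out.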

Additional observations from a re-analysis of the deposited data

Results flagged for a closer look

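In groups of 4 mice, 13 of 222 sets of values (37 members in 6 groups, 5.86%) held a mouse far from the other 3 by Dixon's test; chance flags about 1 in 20. In the bulk fraction, resistant mouse 2 was low for Hspa5 (7.22, others 7.75 to 7.80), Atf4 (7.09, others 7.47 to 7.52) and Slc3a2 (5.18, others 5.56 to 5.63). Vehicle mouse 3 was low for Ppp1r15a (1.92, others 5.14 to 5.64) and Slc7a11 (-1.86, others -0.13 to 0.22). Vehicle mouse 2 was low for Dnajc3 (0.0762, others 0.59 to 0.64) and Xbp1 (4.89, others 5.22 to 5.28). Vehicle mouse 4 was high for Sdf2l1 (1.77, others 1.19 to 1.28), and resistant mouse 4 was low for Pdia4 (1.27, others 2.38 to 2.52).

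In the EC fraction, sensitive mouse 4 was high for Dnajb11 (3.61, others 3.05 to 3.14). Sensitive mouse 3 was low for Edem1 (2.03, others 2.34 to 2.40) and high for Sesn2 (1.39, others 1.20 to 1.23). Vehicle mouse 4 was high for Sec61b (5.73, others 5.43 to 5.46). No resistant EC array was among these. All values are log2 levels.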

How the results depend on the processing

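No called difference turned its direction under the alternatives for scaling, filter, block, mean over probes or left-out arrays; the further single probes of Psat1 (-0.03) and Sec61b (-0.22), which did not pass, had the opposite sign to the called probe in EC resistant against vehicle. Counts of called members that moved by over 1.5 times are these, and the cause was not tested. For EC resistant against vehicle the count was 11 (of which 7 in the chaperone arm) with quantile scaling, and the chaperone arm gave 8 with the percentile of probes detected on all arrays and 8 with the authors' deposited values. Against sensitive arrays the chaperone arm gave 6 with quantile scaling and 7 with that percentile. For bulk resistant against vehicle it was 4 with quantile scaling, 5 with deposited values, 0 without a filter on dim probes, 2 with only genes detected on every array, 0 with the mean of a gene's probes and 2 with median centring. For bulk resistant against sensitive it was 7 with deposited values and 2 without the filter. For EC against bulk in resistant mice it was 7 with unnamed probes in the fit and 4 within their slide. For 600 mm3 against day 9 it was 1 with only genes detected on every array. For vehicle 1300 mm3 against smaller tumours it was 3 with unnamed probes and 8 with median centring. Median centring, unnamed probes in the fit and fits within a slide were chosen after seeing the data.

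With the mouse number as a replicate block, which does not pair treatments, both bulk resistant comparisons gave 0 members, and the EC resistant comparisons gave 19 and 19. Without the replicate block, EC against bulk gave 18 members, 8 in vehicle, 6 in sensitive and 11 in resistant mice.

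Leaving out 1 array or mouse at a time, the counts ran from 15 to 21 for EC resistant against vehicle (chaperone arm 11 to 16), 11 to 19 against sensitive (9 to 14), 0 to 11 for bulk resistant against vehicle, 1 to 9 against sensitive, 15 to 22 for EC against bulk, 6 to 13 in vehicle, 4 to 13 in sensitive and 3 to 12 in resistant mice, 0 to 1 for 600 mm3 against day 9, and 3 to 10 for both comparisons of tumour size. Sensitive against vehicle in either fraction, both tests of a difference between fractions, and both sunitinib tests in smaller tumours gave 0 throughout. The members were detected on all arrays, so the filter on dim probes removed none of them. Their counts still depended on how arrays with different shares of detected probes were scaled. The share of all genes called in each alternative fit is not given here, so a change in a count is not shown to be particular to the members.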
